A study of Mus musculus with 40 samples.

Results

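The comparison described here is that of the infarct scar of the mouse heart on day 14 with that on day 7 after a coronary artery was tied off. Its members are the 8 scar libraries of those days, out of 40 libraries in the series, and they were chosen by their labels for injured tissue and day, with no measured value used. All mice were adult C57BL/6 animals whose left anterior descending coronary artery had been ligated permanently. The tissue groups used here were the day 14 scar, the day 7 scar, and the region remote from the injury in the same hearts on the same days, with 4 mice a day. The mice of day 14 (A4, A5, A6 and A11) were other animals than those of day 7 (A7, A9, A10 and A12), so the days were compared unpaired, and the 2 regions of a heart were compared as a pair. Scars of days 3, 21 and 42 serve for the course over time. Uninjured hearts of other mice were not part of the comparison, since the remote tissue also came from an infarcted heart. RNA was measured by sequencing, and levels are RPKM, the reads of a gene scaled to its length and to the depth of the library. Gene positions are those of the GENCODE annotation for build mm10. Of 11450 genes in the table, 11390 reached 1 RPKM in at least 4 libraries and were tested.

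A heart that has lost a wall of muscle to ischemia fills the gap first with inflammatory cells and then with activated fibroblasts, called myofibroblasts, which lay down collagen and pull on it. Once the wall is closed, macrophages become fewer, myofibroblasts lose their contractile fibres, and fibroblasts that persist make proteins also found in tendon and cartilage. Strands of muscle that survive under the inner and outer surface of the wall stay embedded in the scar.

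The 8 libraries held between 9767213 and 18756039 reads, worked back from the steps between low RPKM values. The first principal component of the 8 libraries carried 66.6% of their variance and separated the days: the day 14 scars lay between 12.1 and 28 and the day 7 scars between -35.7 and -15.5. Day 14 mouse A4 lay nearest to the day 7 scars, and day 7 mouse A10 lay farthest from the day 14 scars. The labelled tissue carried its defining RNAs. Collagen I (Col1a1) averaged 437 (day 14) and 1019 (day 7) RPKM in these scars, against 14.7 and 23.0 RPKM in the remote regions, and the muscle myosin Myh6 averaged 553 (day 14) and 205 (day 7) RPKM, against 4751 and 3812 RPKM. The female-specific RNA Xist was detected in 3 of 4 scars of day 14 and 2 of 4 of day 7, so both days held both sexes. The ribosomal RNA model Mir6236 was listed at 114 to 1972 RPKM in the day 14 scars and at 47.0 to 15700 RPKM in the day 7 scars, highest in mouse A12, and each scar result was refitted without that library.

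The scar of day 14 held other levels of many RNAs than that of day 7. With limma on log2(RPKM + 1) and a Benjamini-Hochberg adjusted p under 0.05, 2496 genes (21.9%) rose and 2416 genes (21.2%) fell. The counts of rises and falls in each gene list below are to be read beside these shares. Changes of at least 1 on the log2 scale were found for 272 genes that rose (2.39%) and 180 that fell (1.58%). A change on this scale is smaller than the true ratio for genes near 1 RPKM. The largest rises were those of heart muscle genes and of genes for secreted proteins such as Cytl1, Angptl7 and Myoc. The largest falls included macrophage genes such as Spp1 and Arg1, the non-coding RNA H19, and genes of matrix turnover such as Cemip. In the remote regions, 853 genes rose (7.49%) and 633 fell (5.56%) over the same week. Over all genes tested the median change was 0.014 in the scar and 0.028 in the remote region. In bulk tissue, fewer cells of a type and less RNA per cell cannot be told apart, here and for every gene group below.

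**Figure D1:**
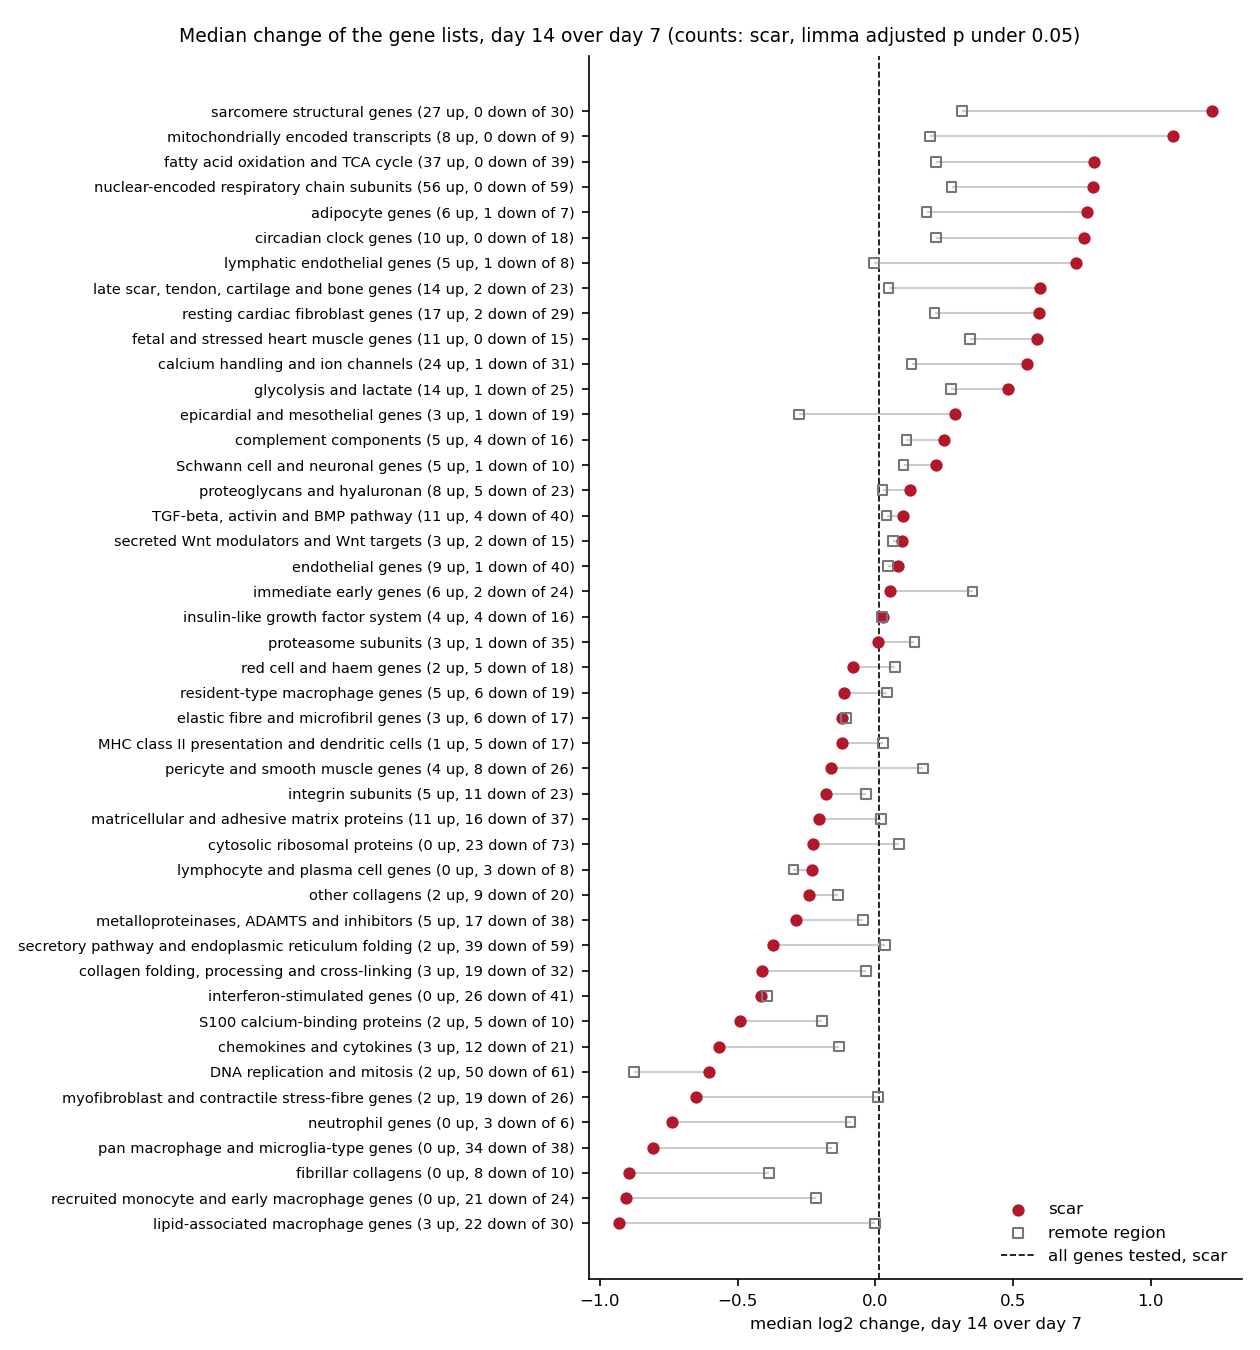
Median log2 change, day 14 over day 7, of the members of each gene list in the scar and in the remote region of the same hearts, with the number of members that rose and fell in the scar beside each name. The lists for heart muscle and mitochondria lie to the right of 0 in the scar, at medians between 0.55 and 1.22 for sarcomere, calcium handling, respiratory chain and mitochondrially encoded genes, and those for macrophages lie to the left, with the pan-macrophage list at -0.81.

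Fibrillar collagens, the rope-like proteins that give a scar its strength, fell. Of 10 members tested, 8 fell and the other 2 did not pass the test, and the median change was -0.89. Every day 14 value lay below every day 7 value in 8 of 10 members, as for 1949 of all genes tested (17.1%). The highest of the 5 scar means was that of day 7 in 8 of 10, as for 2005 of all 11390 genes tested. The list summed to between 1827 and 2710 RPKM in the day 14 scars, against 3869 to 4624 RPKM in the day 7 scars. Col1a1 (chr11:94936224-94953042, plus strand), the main chain of collagen I, measured 620, 396, 407 and 324 RPKM in the day 14 scars, against 932, 962, 1258 and 922 RPKM in the day 7 scars. The 4 day 14 scars lay below all day 7 scars, with mouse A4 the highest of its day (log2 change -1.25 ± 0.21 SE, limma adjusted p = 0.00013). Collagen III, the thinner fibre of early repair, fell less: Col3a1 measured 1224, 1206, 1296 and 945 RPKM in the day 14 scars, against 1640, 1641, 1795 and 1755 RPKM in the day 7 scars. All day 14 scars were again lower (log2 change -0.56 ± 0.15 SE, limma adjusted p = 0.0047). Col11a1, a minor chain that sits in the core of fibrils, had the largest fall of the list (log2 change -1.61 ± 0.27 SE, limma adjusted p = 0.00011), at 8.83 ± 3.53 RPKM on day 14 and 27.99 ± 6.14 RPKM on day 7 (SD, n = 4 each). The chains of collagen V, which starts fibrils, fell by 1.02 (Col5a1) and 0.83 (Col5a2) on the log2 scale. The median of the whole list was -0.39 in the remote regions, where Col1a1 averaged 14.7 RPKM on day 14 and 23.0 RPKM on day 7.

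The balance between collagens I and III moved as well. The log2 ratio of Col1a1 to Col3a1 averaged -1.45 ± 0.317 in the day 14 scars and -0.757 ± 0.175 in the day 7 scars (SD, n = 4 each), a difference of -0.69. A 2-sided exact permutation test gave p = 0.0286, the smallest that 4 against 4 libraries allow, and 0.0381 after adjustment over 4 ratios. The ratio of the 2 chains of collagen I itself, Col1a1 to Col1a2, averaged 0.158 ± 0.160 on day 14 and 0.454 ± 0.0613 on day 7, a difference of -0.30 with the same exact p values. For both ratios the exact permutation p became 0.0571 when any 1 of the day 7 libraries was left out. Remote differences were -0.02 for Col1a1 to Col3a1 (exact permutation p = 0.943) and -0.12 for Col1a1 to Col1a2 (exact permutation p = 0.457). The ratio of Col5a1 to Col5a2 differed by -0.19 (exact permutation p = 0.2).

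Other collagens were mixed: 9 of 20 fell, 2 rose, and the median was -0.24. The falls included Col12a1, which coats fibrils in tissue under tension (log2 change -1.19 ± 0.15 SE, limma adjusted p = 7.9e-06), Col8a1, a short-chain collagen of vessels and wounds (log2 change -0.68), and Col7a1, which anchors fibrils in skin (log2 change -1.11, at 0.659 ± 0.152 RPKM on day 14 and 2.58 ± 0.125 RPKM on day 7 (SD, n = 4 each)). The 2 that rose were the network chains Col4a3 and Col4a4, which share a promoter region and build mature basement membranes. Col4a3 measured 4.35, 4.49, 3.25 and 4.32 RPKM in the day 14 scars, against 0.693, 0.692, 0.420 and 1.45 RPKM in the day 7 scars, with no overlap (log2 change 1.51 ± 0.17 SE, limma adjusted p = 3e-06). Col6a1, a microfibril chain that surrounds cells, measured 128 to 165 RPKM on day 14 and 137 to 179 RPKM on day 7 and did not pass the test.

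The genes that fold, trim and cross-link collagen fell too. Of 32 genes tested, 19 fell and 3 rose, with a median of -0.41 in the scar and -0.03 in the remote region. Lox, the enzyme that starts collagen cross-links, measured 165, 114, 124 and 140 RPKM in the day 14 scars, against 398, 352, 336 and 300 RPKM in the day 7 scars, with every day 14 scar below every day 7 scar (log2 change -1.35 ± 0.18 SE, limma adjusted p = 1.2e-05). The remote log2 change of Lox was -1.17 (limma adjusted p = 0.053). Its scar change did not pass the test against the remote change (difference -0.18, limma adjusted p = 0.67). Serpinh1, a chaperone that binds collagen in the endoplasmic reticulum, fell (log2 change -0.85 ± 0.17 SE, limma adjusted p = 0.00073), and so did Pxdn, a peroxidase that cross-links collagen IV (log2 change -1.30). Pcolce2, which helps the protease that trims procollagen, went the other way: 21.9, 24.3, 20.7 and 26.2 RPKM in the day 14 scars, against 8.90, 8.10, 9.48 and 9.40 RPKM in the day 7 scars. The 2 days did not overlap (log2 change 1.28 ± 0.10 SE, limma adjusted p = 1.4e-07). Colgalt2, which puts sugars on collagen, also rose (log2 change 0.97).

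Among 37 matricellular and adhesive proteins, 16 fell and 11 rose, with a median of -0.20. Several that fell are known from fresh wounds. Postn (chr3:54361109-54391037, plus strand), a secreted marker of activated fibroblasts, measured 345, 277, 384 and 310 RPKM in the day 14 scars, against 1109, 1104, 1088 and 782 RPKM in the day 7 scars. The day 14 values were close together and all below the lowest of day 7, in mouse A12 (log2 change -1.63 ± 0.20 SE, limma adjusted p = 6.8e-06). Tnc (chr4:63959785-64047015, minus strand), an anti-adhesive protein of wound edges, fell to 17.2, 18.0, 16.7 and 12.7 RPKM in the day 14 scars, against 75.5, 74.5, 131 and 52.7 RPKM in the day 7 scars (log2 change -2.23 ± 0.22 SE, limma adjusted p = 1.1e-06). The remote log2 change of Tnc was -1.05 (limma adjusted p = 0.071). Its scar change did not pass the test against the remote change (difference -1.18, limma adjusted p = 0.12). Fn1, the fibronectin that cells crawl on, measured 496, 308, 268 and 244 RPKM in the day 14 scars, against 822, 909, 1070 and 778 RPKM in the day 7 scars, and mouse A4 was again the highest of its day (log2 change -1.49 ± 0.24 SE, limma adjusted p = 7e-05). Spp1 (chr5:104435118-104441050, plus strand), the phosphoprotein osteopontin that macrophages of injured tissue release, had the largest fall of all named genes: 62.0, 33.2, 33.3 and 24.7 RPKM in the day 14 scars, against 236, 303, 654 and 261 RPKM in the day 7 scars. Mouse A10 had the highest day 7 value, and no day 14 scar came near the lowest of day 7 (log2 change -3.17 ± 0.33 SE, limma adjusted p = 1.9e-06).

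Several that rose are known from tendon and cartilage. Comp (chr8:70373558-70382066, plus strand), which bundles collagen fibrils, measured 375, 474, 350 and 342 RPKM in the day 14 scars, against 105, 94.99, 99.5 and 167 RPKM in the day 7 scars. Every day 14 scar was above every day 7 scar (log2 change 1.74 ± 0.18 SE, limma adjusted p = 1.7e-06). The remote regions averaged 4.19 RPKM on day 14 and 1.03 RPKM on day 7, with a log2 change of 1.27 (limma adjusted p = 0.13). The scar change of Comp did not pass the test against the remote change (difference 0.47, limma adjusted p = 0.55). Cilp2, a matrix protein of cartilage, measured 4.22, 9.62, 5.07 and 5.67 RPKM in the day 14 scars, against 1.12, 0.651, 0.567 and 0.906 RPKM in the day 7 scars, again with no overlap (log2 change 1.94 ± 0.16 SE, limma adjusted p = 1.9e-07). Cytl1 (chr5:37735519-37739820, plus strand), a small secreted protein of cartilage cells, had the second largest rise among the genes named. Its level was 34.2, 28.1, 16.8 and 32.9 RPKM in the day 14 scars, against 1.35, 1.01, 0.668 and 2.57 RPKM in the day 7 scars. The lowest day 14 value was over 6 times the highest day 7 value (log2 change 3.605 ± 0.22 SE, limma adjusted p = 6.7e-09), and the scar change exceeded the remote change by a log2 value of 2.95 (limma adjusted p = 1e-05).

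**Figure D2:**
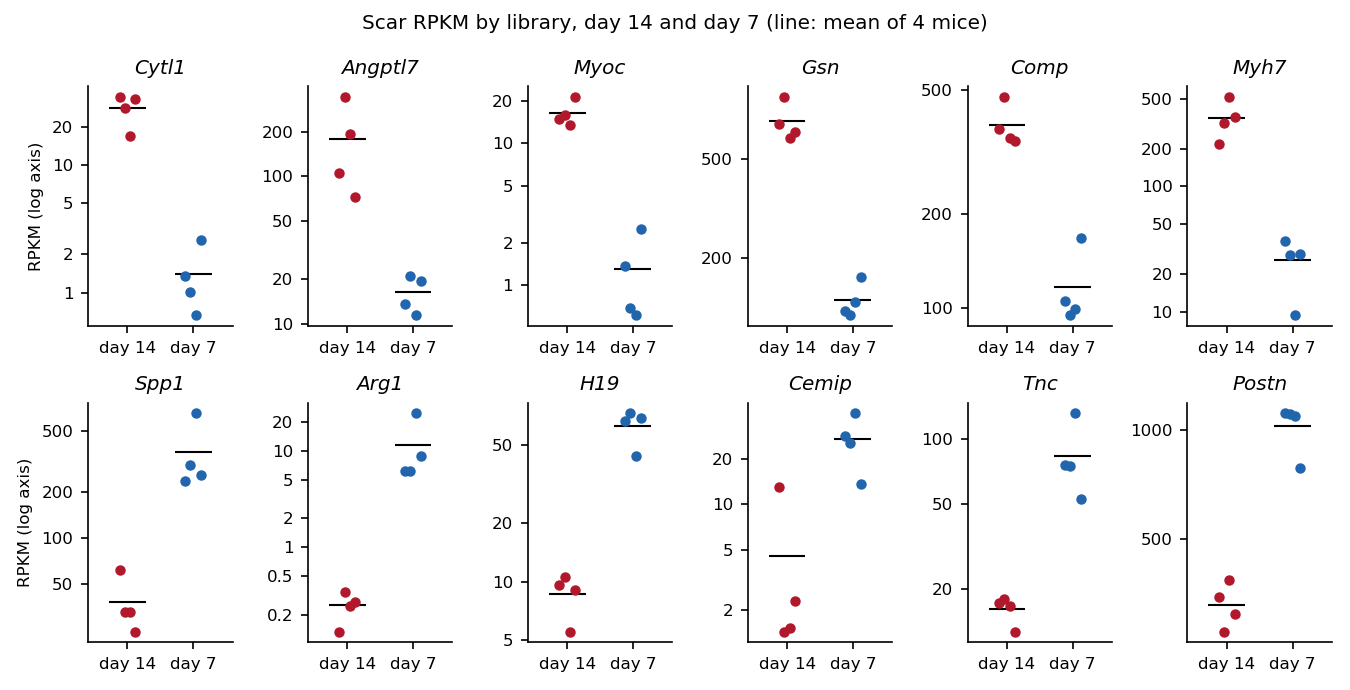
RPKM of 12 genes in each of the 4 day 14 scars and the 4 day 7 scars, on log axes that differ between panels, with a line at the mean of 4 mice. The upper row holds genes that rose and the lower row genes that fell, and the 2 days do not overlap in any panel.

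Angptl7 and Myoc, 2 secreted glycoproteins best known from the drainage tissue of the eye, rose together. Angptl7 (chr4:148495183-148500460, minus strand) measured 106, 346, 194 and 72.3 RPKM in the day 14 scars, against 13.6, 21.0, 11.5 and 19.4 RPKM in the day 7 scars. All day 14 scars were higher, with mouse A5 the highest (log2 change 3.16 ± 0.43 SE, limma adjusted p = 2e-05). Myoc measured 14.8, 15.8, 13.4 and 21.2 RPKM in the day 14 scars, against 1.38, 0.697, 0.620 and 2.48 RPKM in the day 7 scars, with no overlap (log2 change 2.96 ± 0.30 SE, limma adjusted p = 1.7e-06). Both had their highest scar mean on day 42, at 247 RPKM for Angptl7 and 59.0 RPKM for Myoc. Fmo2, a drug-oxidising enzyme, rose too but varied more within day 14: 12.8, 42.1, 33.7 and 7.40 RPKM in the day 14 scars, against 2.47, 3.12, 1.97 and 2.92 RPKM in the day 7 scars (log2 change 2.50 ± 0.43 SE, limma adjusted p = 0.00019). Angptl7, Myoc and Fmo2 also rose in the remote regions, with log2 changes of 1.33, 1.30 and 1.24 (limma adjusted p = 0.0012, 0.0002 and 0.029). Their scar changes exceeded the remote changes by 1.83, 1.66 and 1.27 (limma adjusted p = 0.0031, 0.00044 and 0.00073).

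Of 17 elastic fibre and microfibril genes, 6 fell and 3 rose. Fbn1, the backbone of microfibrils, fell (log2 change -0.86 ± 0.16 SE, limma adjusted p = 0.00024), at 202 ± 18.7 RPKM on day 14 and 367 ± 15.8 RPKM on day 7 (SD, n = 4 each). Fbln1, which binds elastin and fibronectin, measured 142, 166, 155 and 151 RPKM in the day 14 scars, against 53.6, 47.9, 43.6 and 65.5 RPKM in the day 7 scars, and the days were far apart (log2 change 1.54 ± 0.12 SE, limma adjusted p = 1.4e-07). Ltbp4, which holds latent TGF-beta on fibres and helps to assemble elastin, also rose (log2 change 1.16). Elastin itself, Eln, measured 153, 117, 187 and 167 RPKM in the day 14 scars, against 144, 148, 108 and 261 RPKM in the day 7 scars, and its days overlapped (limma adjusted p = 0.96).

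Of 23 proteoglycan and hyaluronan genes, 8 rose and 5 fell, with a median of 0.12. Among those that rose were small leucine-rich proteoglycans, which coat collagen fibrils. Decorin, Dcn, measured 787, 1061, 891 and 1026 RPKM in the day 14 scars, against 633, 532, 509 and 548 RPKM in the day 7 scars, without overlap (log2 change 0.75 ± 0.16 SE, limma adjusted p = 0.00085). Prelp, which ties collagen to basement membranes, measured 83.5, 97.7, 73.1 and 71.2 RPKM in the day 14 scars, against 28.6, 23.7, 22.5 and 30.4 RPKM in the day 7 scars, without overlap (log2 change 1.59 ± 0.16 SE, limma adjusted p = 1.2e-06). Chad, a cartilage protein that binds collagen and integrins, reached 1.64, 4.83, 2.46 and 2.94 RPKM in day 14 scars, against 0.370, 0.228, 0.0247 and 0.582 RPKM in day 7 scars (log2 change 1.57 ± 0.27 SE, limma adjusted p = 0.00015). Acan, the aggrecan of cartilage, fell by 1.39 on the log2 scale, and Has2, an enzyme that makes hyaluronan, by 1.04. Cemip (chr7:83932857-84086502, minus strand), which takes part in breaking hyaluronan down, measured 12.96, 1.45, 1.52 and 2.29 RPKM in the day 14 scars, against 28.2, 25.4, 39.7 and 13.7 RPKM in the day 7 scars. Mouse A4 stood apart from the other day 14 scars and was just under the lowest day 7 scar (log2 change -2.67 ± 0.44 SE, limma adjusted p = 0.00013), and without that library the log2 change was -3.25.

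Among matrix-cutting enzymes more fell than rose: 17 of 38 metalloproteinases, ADAMTS enzymes and inhibitors fell and 5 rose, with a median of -0.29. The summed RPKM of the list overlapped between days, at 865 to 1152 in the day 14 scars and 1047 to 1227 in the day 7 scars. Mmp14, a membrane-bound collagenase that activates Mmp2, measured 30.7, 18.97, 20.8 and 32.5 RPKM in the day 14 scars, against 74.7, 79.9, 98.2 and 71.5 RPKM in the day 7 scars (log2 change -1.64 ± 0.18 SE, limma adjusted p = 3.3e-06). Mmp2 itself was higher on day 14 without overlap, at 172 to 225 RPKM against 146 to 165 RPKM, but did not pass the test (log2 change 0.34, limma adjusted p = 0.072). It passed as a rise with only the 8 scar libraries fitted (limma adjusted p = 0.0423) or without day 14 mouse A11 (0.0492). In the remote regions Mmp2 rose (log2 change 0.56, limma adjusted p = 0.039). Adamts16, a secreted protease with few known substrates, fell to 0.622, 0.120, 0.334 and 0.112 RPKM in day 14 scars, against 5.97, 4.43, 6.24 and 2.29 RPKM in day 7 scars (log2 change -2.10 ± 0.18 SE, limma adjusted p = 2.1e-07). Mmp12, the elastase of macrophages, and Adam12, a membrane protease of activated fibroblasts, fell by 1.34 and 1.73 on the log2 scale. Mmp3, stromelysin, took the opposite course: 13.8, 12.6, 14.3 and 17.4 RPKM in the day 14 scars, against 2.11, 2.51, 2.93 and 3.14 RPKM in the day 7 scars. Its day 14 scars were all at least 4 times above the highest day 7 scar (log2 change 2.08 ± 0.16 SE, limma adjusted p = 1.3e-07). Reck, a membrane inhibitor of these enzymes, rose as well (log2 change 0.85). The count of 5 that rose became 3 without day 7 mouse A9, without day 7 mouse A10 and without day 14 mouse A5.

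The state of the fibroblasts was read from 2 lists. Of 26 myofibroblast and stress-fibre genes, 19 fell and 2 rose, with a median of -0.65 in the scar and 0.01 in the remote region. Acta2, the smooth muscle actin of contractile fibroblasts, measured 195, 162, 122 and 143 RPKM in the day 14 scars, against 246, 318, 508 and 241 RPKM in the day 7 scars. Mouse A10 had the highest day 7 value, and the days did not overlap (log2 change -1.03 ± 0.21 SE, limma adjusted p = 0.00067). Tagln, an actin-bundling protein, fell (log2 change -1.16 ± 0.20 SE, limma adjusted p = 0.00015), at 81.7 ± 22.02 RPKM on day 14 and 188 ± 71.5 RPKM on day 7 (SD, n = 4 each). Lrrc15, a surface protein of activated fibroblasts, was close to 0 on day 14: 0.304, 0.0385, 0.135 and 0.110 RPKM in the day 14 scars, against 3.30, 4.12, 4.83 and 1.75 RPKM in the day 7 scars (log2 change -1.92 ± 0.16 SE, limma adjusted p = 2.1e-07). Cthrc1, secreted by the fibroblasts that make most collagen, measured 80.6, 70.8, 63.6 and 68.6 RPKM in the day 14 scars, against 223, 233, 246 and 226 RPKM in the day 7 scars, with narrow and separate groups (log2 change -1.70 ± 0.16 SE, limma adjusted p = 7.2e-07). The 2 that rose, Fhl2 and Tpm1, are also made by heart muscle, and their remote levels on day 14 averaged 1141 and 2078 RPKM.

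Of 29 genes of resting cardiac fibroblasts, 17 rose and 2 fell, with a median of 0.59. Gsn (chr2:35256380-35307892, plus strand), an actin-severing protein with a secreted form, measured 695, 891, 608 and 645 RPKM in the day 14 scars, against 123, 118, 134 and 168 RPKM in the day 7 scars. The day 14 scars were all more than 3 times above the highest day 7 scar (log2 change 2.38 ± 0.16 SE, limma adjusted p = 2.6e-08). In the remote regions Gsn also rose, averaging 562 ± 88.2 RPKM on day 14 and 222 ± 35.4 RPKM on day 7 (log2 change 1.34, limma adjusted p = 7.1e-06), and the scar change exceeded the remote change by 1.04 (limma adjusted p = 0.0024). Clec3b, a plasminogen-binding protein, rose (log2 change 1.75 ± 0.26 SE, limma adjusted p = 4e-05), at 10.8 ± 2.79 RPKM on day 14 and 2.75 ± 2.04 RPKM on day 7 (SD, n = 4 each). Pdgfra, the growth factor receptor that marks fibroblasts in general, rose by a smaller step (log2 change 0.50), and Tcf21, a transcription factor of resting fibroblasts, measured 36.0, 33.9, 31.1 and 27.1 RPKM in the day 14 scars, against 29.1, 26.6, 21.3 and 37.6 RPKM in the day 7 scars with overlapping days (limma adjusted p = 0.36). The 2 that fell were Cxcl12, a chemokine that holds blood-forming cells and lymphocytes (log2 change -0.84), and Cd248, a surface protein of activated stromal cells (log2 change -0.77).

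Of 23 genes of late scar, tendon, cartilage and bone, 14 rose and 2 fell, with a median of 0.60, and 17 of 23 had their highest scar mean on day 21 or day 42. Over all 11390 genes tested, 1720 were highest on day 21 and 2829 on day 42. The list summed to between 3053 and 3665 RPKM in day 14 scars, against 1768 to 2252 RPKM in day 7 scars. Its remote median was 0.05, but some members were near 0 RPKM there. Chad, Cilp2 and Acan averaged at most 0.14 RPKM in the remote regions on both days. With 1 RPKM added before the logarithm, their remote change could only be close to 0. Comp, Cilp2, Prelp, Chad and Cytl1 belong to this list, and the 2 that fell were Acan and Scx. Scx averaged 9.25 ± 2.06 RPKM on day 14 and 15.2 ± 4.96 RPKM on day 7 (SD, n = 4 each) (log2 change -0.64 ± 0.19 SE, limma adjusted p = 0.012). The scar change was higher than the remote change for 5 of the 23 and lower for 2, against 10.7% and 12.7% of all genes tested. These lists were drawn up with earlier results of the same study known, so their direction is a description of the genes and not independent evidence.

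Secreted signals to fibroblasts changed piecemeal. Of 40 genes of the TGF-beta, activin and BMP pathway, 11 rose and 4 fell, with a median of 0.10. Among ligands, Tgfb1 measured 5.11, 4.68, 4.92 and 5.43 RPKM in the day 14 scars, against 4.57, 4.87, 5.73 and 7.01 RPKM in the day 7 scars, with overlapping days (limma adjusted p = 0.38), while Inhba, the activin subunit, and Gdf6, a BMP-type ligand of joints, fell by 0.87 and 1.06 on the log2 scale. The co-receptor Tgfbr3, also called betaglycan, measured 9.75, 11.1, 10.7 and 10.1 RPKM in the day 14 scars, against 5.23, 4.94, 4.26 and 5.29 RPKM in the day 7 scars, without overlap (log2 change 0.95 ± 0.08 SE, limma adjusted p = 1.5e-07). Among those that rose were 2 inhibitors: Smad7, which blocks the receptor inside the cell (log2 change 0.52), and Chrdl1, which captures BMPs outside it (log2 change 1.29). Among 15 Wnt modulators and targets, 3 rose and 2 fell, against 21.9% and 21.2% of all genes tested. Sfrp1, a decoy that binds Wnt proteins, fell (log2 change -1.01 ± 0.15 SE, limma adjusted p = 4.1e-05), at 74.2 ± 10.8 RPKM on day 14 and 149 ± 9.71 RPKM on day 7 (SD, n = 4 each), and Dkk3, a relative of Wnt inhibitors, rose (log2 change 0.60).

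In the insulin-like growth factor system 4 of 16 genes rose and 4 fell, against 21.9% and 21.2% of all genes tested. H19 (chr7:142575529-142578143, minus strand), a long non-coding RNA that is imprinted together with Igf2 and is abundant in fetal tissue, had the third largest fall among the genes named. It measured 9.57, 10.5, 5.55 and 9.01 RPKM in the day 14 scars, against 66.3, 72.8, 44.3 and 68.7 RPKM in the day 7 scars. The lowest day 7 value was over 4 times the highest day 14 value (log2 change -2.73 ± 0.30 SE, limma adjusted p = 3.2e-06). Its neighbour Igf2 averaged 0.943 ± 0.307 RPKM on day 14 and 1.99 ± 0.951 RPKM on day 7 (SD, n = 4 each) and did not pass the test (limma adjusted p = 0.058). It passed without day 7 mouse A10 (limma adjusted p = 0.0113), without day 14 mouse A11 (0.045), and with a pseudocount of 0.1 RPKM (0.0436), quantile normalization (0.0442) or Xist as a covariate (0.0385). Igf1, the growth factor itself, fell (log2 change -0.59), and so did Pappa, a protease that frees it from its carriers (log2 change -0.95). Htra3, a secreted protease, and Igfbp6, a carrier that prefers Igf2, rose by 1.204 and 1.19 on the log2 scale. Htra3 and Igfbp6 also rose in the remote regions, with log2 changes of 0.58 and 0.99 (limma adjusted p = 0.038 and 0.0046). Their scar changes did not pass the test against the remote changes (differences 0.62 and 0.20, limma adjusted p = 0.10 and 0.57).

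Macrophage RNA fell. Of 38 genes of macrophages in general, 34 fell and the other 4 did not pass the test, with medians of -0.81 in the scar and -0.16 in the remote region. The list summed to between 1195 and 1640 RPKM in the day 14 scars, against 2520 to 3667 RPKM in the day 7 scars. Ctss, the lysosomal protease cathepsin S, measured 202, 177, 134 and 162 RPKM in the day 14 scars, against 503, 530, 636 and 587 RPKM in the day 7 scars, and the days were far apart (log2 change -1.75 ± 0.17 SE, limma adjusted p = 9.6e-07). Cd68, a lysosomal membrane protein, measured 35.9, 26.5, 23.9 and 18.3 RPKM in the day 14 scars, against 56.8, 74.0, 94.6 and 75.8 RPKM in the day 7 scars, without overlap (log2 change -1.51 ± 0.20 SE, limma adjusted p = 1.1e-05). Adgre1, the surface marker also called F4/80, and Csf1r, the growth factor receptor on which macrophages depend, fell by 1.04 and 0.66 on the log2 scale. C3ar1, the receptor for a complement fragment, fell (log2 change -1.55 ± 0.14 SE, limma adjusted p = 5.8e-07).

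Lists for single kinds of macrophage were read apart. Of 24 genes of recruited monocytes and early macrophages, 21 fell, with a median of -0.91. Their highest scar mean was on day 3 for 20 of 24, as for 4024 of all 11390 genes tested. Arg1 (chr10:24915221-24927484, minus strand), the arginine-consuming enzyme of wound macrophages, fell to 0.133, 0.346, 0.243 and 0.273 RPKM in day 14 scars, against 6.15, 6.20, 24.7 and 8.91 RPKM in day 7 scars. Every day 14 scar was under 1 RPKM and mouse A10 had by far the highest day 7 level (log2 change -3.10 ± 0.52 SE, limma adjusted p = 0.00018). Hmox1, which breaks haem down, measured 11.6, 9.99, 14.4 and 8.44 RPKM in the day 14 scars, against 33.1, 38.6, 99.1 and 36.5 RPKM in the day 7 scars, with mouse A10 again the highest (log2 change -1.99 ± 0.25 SE, limma adjusted p = 9.6e-06). Ccr2, the receptor that brings monocytes from the blood, fell (log2 change -1.22), and its ligands Ccl2 and Ccl7 fell by 1.57 and 1.70. Both ligands also fell in the remote regions, with log2 changes of -1.12 and -0.90 (limma adjusted p = 0.0003 and 0.017). Their scar changes did not pass the test against the remote changes (differences -0.45 and -0.80, limma adjusted p = 0.31 and 0.077).

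Of 30 genes of lipid-associated macrophages, 22 fell and 3 rose, with a median of -0.93. Their highest scar mean was on day 7 for 19 of 30, as for 2005 of all 11390 genes tested. Gpnmb, a glycoprotein of lipid-laden macrophages, measured 20.7, 9.13, 10.8 and 5.88 RPKM in the day 14 scars, against 39.3, 58.7, 65.4 and 58.9 RPKM in the day 7 scars. The highest day 14 value, in mouse A4, was below every day 7 value (log2 change -2.27 ± 0.31 SE, limma adjusted p = 2e-05). Trem2, a lipid receptor, fell (log2 change -1.30 ± 0.17 SE, limma adjusted p = 1.3e-05), at 5.98 ± 1.49 RPKM on day 14 and 16.2 ± 3.12 RPKM on day 7 (SD, n = 4 each). Among those that rose, Lpl, the lipase that frees fatty acids from lipoproteins (log2 change 0.81), is also abundant in heart muscle, where the remote level averaged 474 ± 33.1 RPKM on day 14 and 418 ± 49.8 RPKM on day 7.

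Of 19 resident-type macrophage genes, 6 fell and 5 rose, with a median of -0.11. Folr2, a folate receptor, and Pf4, a chemokine shared with platelets, fell by 1.30 and 1.26. Lyve1, a hyaluronan receptor shared with lymphatic vessels, measured 3.96, 11.7, 6.20 and 7.42 RPKM in the day 14 scars, against 1.81, 2.49, 0.867 and 1.64 RPKM in the day 7 scars, without overlap (log2 change 1.58 ± 0.36 SE, limma adjusted p = 0.002). C4b, a complement component, rose by 1.002. Serpinb1a, an inhibitor of neutrophil proteases, was among the largest falls: it measured 10.6, 7.25, 14.1 and 9.17 RPKM in the day 14 scars, against 63.1, 62.8, 88.8 and 61.5 RPKM in the day 7 scars. All day 14 scars were below all day 7 scars (log2 change -2.65 ± 0.21 SE, limma adjusted p = 1.9e-07).

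**Figure D3:**
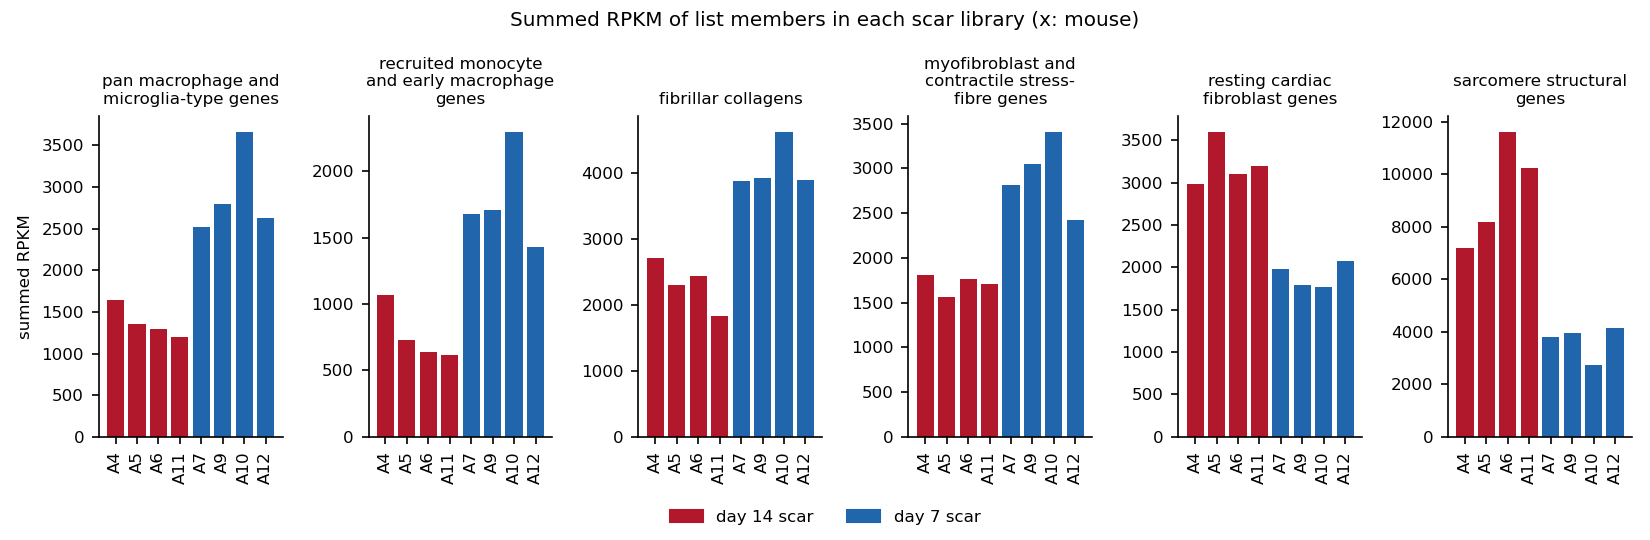
Summed RPKM of 6 gene lists in the scar library of each day 14 and day 7 mouse. The pan-macrophage sum ran from 1195 to 1640 RPKM on day 14, against 2520 to 3667 RPKM on day 7, and the sarcomere sum from 7193 to 11630 RPKM, against 2730 to 4164 RPKM.

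Other immune cell genes were counted in lists of their own. Of 21 neutrophil genes listed, 6 were high enough to be tested, and 3 of these fell. Csf3r, the receptor for the growth factor of neutrophils, measured 2.34, 1.93, 2.10 and 1.71 RPKM in the day 14 scars, against 4.83, 4.59, 5.67 and 5.06 RPKM in the day 7 scars (log2 change -0.999 ± 0.13 SE, limma adjusted p = 8.9e-06). Of 39 lymphocyte and plasma cell genes 8 were tested and 3 fell, among them Il7r, the interleukin-7 receptor of lymphocytes (log2 change -1.30) and Cd52, a short surface glycoprotein (log2 change -0.84). Jchain, which joins antibody units, varied without regard to day: 0.391, 4.51, 26.6 and 1.58 RPKM in the day 14 scars, against 5.31, 5.71, 0.0824 and 2.44 RPKM in the day 7 scars (limma adjusted p = 0.67). Of 17 genes of MHC class II and dendritic cells, 5 fell and 1 rose, and H2-Ab1, a class II chain, measured 74.1, 83.9, 85.3 and 101 RPKM in the day 14 scars, against 81.7, 85.0, 89.4 and 71.6 RPKM in the day 7 scars, with overlapping days (limma adjusted p = 0.81). In the remote regions H2-Ab1 rose (log2 change 0.81, limma adjusted p = 0.022). Ifi30, a thiol reductase of antigen processing, fell (log2 change -0.96).

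Of 21 chemokine and cytokine genes, 12 fell and 3 rose, with a median of -0.57. Csf1, which feeds macrophages, was 1 of the 3 that rose, at 15.9 ± 2.07 RPKM on day 14 and 10.6 ± 0.685 RPKM on day 7 (SD, n = 4 each) (log2 change 0.54 ± 0.10 SE, limma adjusted p = 0.00041). Among 16 complement genes, 5 rose and 4 fell. C3, the central component, measured 104, 197, 213 and 137 RPKM in the day 14 scars, against 62.6, 86.6, 99.9 and 210 RPKM in the day 7 scars, with mouse A12 of day 7 among the high values and overlapping days (limma adjusted p = 0.14). Without that library C3 passed the test (log2 change 0.93, limma adjusted p = 0.0124). Cfp, which stabilises the complement enzyme on surfaces, fell (log2 change -0.98), as did C1qa, a chain of the first component made by macrophages (log2 change -0.74).

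Interferon-stimulated genes fell in both regions. Of 41 genes tested, 26 fell in the scar, with a median of -0.42, and 17 fell in the remote region, with a median of -0.39. The change differed between regions for 3 of 41, or for 9 after quantile normalization, and over all genes tested the scar change was higher than the remote change for 1215 genes (10.7%) and lower for 1444 (12.7%). Mx1, an antiviral GTPase, measured 1.82, 2.16, 1.81 and 2.82 RPKM in the day 14 scars, against 4.56, 6.14, 5.91 and 3.41 RPKM in the day 7 scars, without overlap (log2 change -0.91 ± 0.12 SE, limma adjusted p = 1.5e-05). Isg15, a ubiquitin-like protein, and Irf7, a transcription factor of the interferon response, fell by 0.80 and 0.73. Oas1a, which makes the signal for RNA decay, fell (log2 change -0.82 ± 0.13 SE, limma adjusted p = 9e-05), at 1.82 ± 0.310 RPKM on day 14 and 3.96 ± 0.323 RPKM on day 7 (SD, n = 4 each). With genes kept only from 5 RPKM in 4 libraries, 27 of these genes were tested and 16 fell.

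Promoter windows from RefSeq (250 bases before to 50 after the start of a gene, build GRCm38.p6) were searched on both strands for the core of the interferon-stimulated response element, which is GAAA, any 2 bases, and GAAA again. It was found in 1131 of 32851 windows (3.44%). Windows were matched for 8550 of the tested genes by symbol, and 329 of these genes (3.85%) held the core in a window. Among the interferon-stimulated genes with a window it was 16 of 29, 11 of them among 17 genes that fell. The stretches of Isg15 (chr4:156200860-156200911, minus strand) and Oas1a (chr5:120907515-120907560, minus strand) are shown because both fell and hold overlapping copies, in capitals, with 15 bases on either side.
Isg15: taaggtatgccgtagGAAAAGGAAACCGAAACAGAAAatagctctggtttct
Oas1a: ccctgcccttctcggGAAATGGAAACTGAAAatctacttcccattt
A match is a description of the sequence and was not linked to the measured change.

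Genes of DNA replication and mitosis fell in both regions. Of 61 tested, 50 fell and 2 rose in the scar, with a median of -0.60, and 51 fell in the remote region, with a median of -0.87. The change was higher in the scar than in the remote region for 20 of the 61, and for 7 after quantile normalization. In the scar, 60 of 61 had their highest mean on day 3, as did 4024 of all 11390 genes tested. Mki67, a protein of dividing cells, measured 5.34, 5.04, 4.67 and 5.83 RPKM in the day 14 scars, against 11.2, 12.8, 16.6 and 12.6 RPKM in the day 7 scars, without overlap (log2 change -1.19 ± 0.12 SE, limma adjusted p = 1.7e-06). In the remote regions it averaged 2.82 ± 0.822 RPKM on day 14 and 16.7 ± 4.50 RPKM on day 7 (log2 change -2.20, limma adjusted p = 0.00026). Top2a, which untangles DNA, and Cdk1, the kinase that starts mitosis, fell by 1.11 and 1.22 in the scar. The 2 that rose were the D-type cyclins Ccnd2 and Ccnd1, which act before DNA is copied, with log2 changes of 0.71 and 0.48.

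Genes for making and folding secreted proteins fell in the scar. Of 59 genes of the secretory pathway and endoplasmic reticulum folding, 39 fell and 2 rose, with medians of -0.37 in the scar and 0.03 in the remote region, and the scar change was lower than the remote change for 37 of them. That count was 20 with libraries scaled to recovered reads and 25 without day 7 mouse A10. Sec61b, a subunit of the channel into the endoplasmic reticulum, measured 6.75, 6.46, 5.61 and 6.76 RPKM in the day 14 scars, against 11.1, 14.2, 20.1 and 10.9 RPKM in the day 7 scars, without overlap (log2 change -0.99 ± 0.13 SE, limma adjusted p = 1.3e-05). Ckap4, which shapes endoplasmic reticulum sheets, fell by 0.96. Hspa5, the main chaperone of the compartment, measured 86.8, 103, 72.6 and 81.8 RPKM in the day 14 scars, against 93.8, 110, 109 and 98.1 RPKM in the day 7 scars, with overlapping days (limma adjusted p = 0.18). The 2 that rose are known from its stress response: Herpud1, which clears misfolded proteins, measured 44.5, 56.6, 51.0 and 30.1 RPKM in the day 14 scars, against 23.0, 27.6, 25.5 and 24.02 RPKM in the day 7 scars (log2 change 0.81 ± 0.14 SE, limma adjusted p = 0.00014), and Ddit3, a stress transcription factor, rose by 0.65. Of 73 cytosolic ribosomal protein genes, 23 fell, with a median of -0.23, but the count became 12 without day 7 mouse A10, 37 without day 7 mouse A12 and 14 with only the 8 scar libraries fitted.

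The same windows were searched for the endoplasmic reticulum stress response element, which is CCAAT, any 9 bases, and CCACG, a motif of chaperone promoters. It was found in 39 of 32851 windows (0.119%) and for 15 of the 8550 tested genes with a window (0.175%). Among the secretory genes with a window it was 7 of 48, 3 of them among 31 genes that fell. The stretches of Pdia6 (chr12:17266476-17266524, plus strand) and Hspa5 (chr2:34772010-34772058, plus strand) are shown with the element in capitals, because they carry the same element and only the first of these genes passed the test.
Pdia6: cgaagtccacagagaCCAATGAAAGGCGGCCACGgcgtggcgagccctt
Hspa5: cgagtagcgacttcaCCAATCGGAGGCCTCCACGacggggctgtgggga
Pdia6, a disulfide-exchanging enzyme chosen after its values were seen, measured 32.5, 33.5, 28.1 and 35.1 RPKM in the day 14 scars, against 39.05, 47.4, 64.5 and 48.2 RPKM in the day 7 scars, without overlap (log2 change -0.59 ± 0.15 SE, limma adjusted p = 0.0039). Whether Pdia6 and Hspa5 differed in their change was not tested. The CArG box of contractile genes was found in 535 of the windows (1.63%) and for 146 of the 8550 tested genes with a window (1.71%). Among the myofibroblast genes with a window it was 3 of 21.

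Heart muscle RNA rose within the scar. Of 30 sarcomere genes, 27 rose and the other 3 did not pass the test, with medians of 1.22 in the scar and 0.31 in the remote region, where 7 rose. The list summed to 7193, 8186, 11630 and 10230 RPKM in the day 14 scars, against 3815, 3937, 2730 and 4164 RPKM in the day 7 scars. All day 14 sums were higher, and mouse A10 had the lowest of day 7. Remote sums ran from 31830 to 37690 RPKM on day 14 and from 25290 to 30920 RPKM on day 7, above every scar sum on both days. Whether the dissected pieces held different amounts of muscle was not tested.

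Myh7 (chr14:54970684-54994626, minus strand), the slow myosin heavy chain that the mouse heart makes before birth and under load, had the largest rise of all named genes. It measured 219, 318, 516 and 355 RPKM in the day 14 scars, against 36.6, 28.4, 9.46 and 28.8 RPKM in the day 7 scars. The days did not overlap, and mouse A10 was the lowest by a wide margin (log2 change 3.80 ± 0.38 SE, limma adjusted p = 1.2e-06). Myh6, the fast chain of the adult mouse heart, measured 379, 599, 705 and 527 RPKM in the day 14 scars, against 221, 205, 94.0 and 301 RPKM in the day 7 scars, also without overlap (log2 change 1.505 ± 0.37 SE, limma adjusted p = 0.0027). The log2 ratio of Myh7 to Myh6 averaged -0.681 ± 0.209 in the day 14 scars and -3.04 ± 0.379 in the day 7 scars (SD, n = 4 each), a difference of 2.35 (2-sided exact permutation p = 0.0286, 0.0381 after adjustment over 4 ratios). The remote ratio differed by 1.31 (exact permutation p = 0.0286), at -5.58 ± 0.623 on day 14 and -6.88 ± 0.159 on day 7.

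Light chains, troponins and actin rose as well. Myl2, the ventricular light chain, measured 652, 689, 968 and 827 RPKM in the day 14 scars, against 203, 187, 95.2 and 175 RPKM in the day 7 scars, without overlap (log2 change 2.28 ± 0.28 SE, limma adjusted p = 7.7e-06). Tnni3, the adult inhibitory troponin, and Myom2, which links filaments at the middle of the sarcomere, rose by 2.26 and 2.42. Actc1, the cardiac actin, measured 1534, 1601, 2361 and 2074 RPKM in the day 14 scars, against 951, 1031, 798 and 1031 RPKM in the day 7 scars (log2 change 0.97 ± 0.25 SE, limma adjusted p = 0.0036). Of 15 genes of the fetal and stressed heart, 11 rose, with a median of 0.59, and the count was 6 without day 7 mouse A10. Nppa, the atrial natriuretic peptide of stretched muscle, measured 4648, 3853, 4995 and 6084 RPKM in the day 14 scars, against 2227, 1776, 1229 and 1753 RPKM in the day 7 scars, without overlap (log2 change 1.499 ± 0.21 SE, limma adjusted p = 2.8e-05). It stood far above the remote level, which averaged 739 ± 154 RPKM on day 14 and 469 ± 142 RPKM on day 7. Nppb, the related brain-type peptide, and Ankrd1, a stretch-responsive protein of the sarcomere, rose by 1.30 and 1.65.

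Of 31 calcium handling and ion channel genes, 24 rose and 1 fell, with a median of 0.55. Hrc, a calcium-binding protein of the store from which muscle releases calcium, measured 10.9, 26.4, 33.0 and 23.6 RPKM in the day 14 scars, against 3.73, 3.53, 1.70 and 6.13 RPKM in the day 7 scars (log2 change 2.34 ± 0.36 SE, limma adjusted p = 7.2e-05). Casq2, the main calcium buffer of that store, and Atp2a2, the pump that fills it, rose by 1.61 and 1.05. The 1 that fell was Gja5, a gap junction protein of arteries and the conduction system (log2 change -0.76 ± 0.19 SE, limma adjusted p = 0.0035), at 3.35 ± 1.05 RPKM on day 14 and 6.36 ± 1.80 RPKM on day 7 (SD, n = 4 each).

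Genes of energy metabolism rose in the scar. Of 59 nuclear-encoded respiratory chain subunits, 56 rose, with medians of 0.79 in the scar and 0.28 in the remote region, where 20 rose. Cox6a2, a muscle isoform of cytochrome c oxidase, measured 114, 144, 206 and 194 RPKM in the day 14 scars, against 37.0, 41.3, 25.1 and 37.8 RPKM in the day 7 scars, without overlap (log2 change 2.17 ± 0.23 SE, limma adjusted p = 2.3e-06). Cox8b, another muscle isoform, rose by 2.15, while Cox4i1, which every tissue uses, rose by 0.73. Of 9 mitochondrially encoded transcripts tested, 8 rose, with a median of 1.08. The transcript mt-Co1, a core subunit of the oxidase, measured 3803, 5018, 5786 and 6830 RPKM in the day 14 scars, against 2670, 2926, 1947 and 2642 RPKM in the day 7 scars, without overlap (log2 change 1.06 ± 0.20 SE, limma adjusted p = 0.00042). Its day 3 mean was higher still, at 7746 RPKM, as 8 of the 9 were highest on day 3, against 4024 of all 11390 genes tested.

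Of 39 genes of fatty acid oxidation and the TCA cycle, 37 rose, with a median of 0.80, and the scar change exceeded the remote change for 24, or for 10 without day 7 mouse A10. Fabp3, which carries fatty acids in muscle, measured 91.8, 127, 214 and 170 RPKM in the day 14 scars, against 39.5, 41.5, 22.1 and 44.6 RPKM in the day 7 scars, without overlap (log2 change 1.98 ± 0.30 SE, limma adjusted p = 4.9e-05). Idh2, a mitochondrial TCA enzyme, rose by 1.63. Among 25 glycolysis genes, 14 rose and 1 fell. The rises were largest for the muscle isoform Pgam2 (log2 change 1.95 ± 0.26 SE, limma adjusted p = 1.6e-05) and for Ldhb (log2 change 1.61), while Pkm, the pyruvate kinase of most tissues, measured 129, 140, 177 and 164 RPKM in the day 14 scars, against 108, 138, 169 and 148 RPKM in the day 7 scars, with overlapping days (limma adjusted p = 0.51). The 1 that fell was Slc16a3, a lactate exporter of cells that rely on glycolysis (log2 change -0.75). Ckmt2, the creatine kinase of muscle mitochondria, measured 102, 132, 202 and 161 RPKM in the day 14 scars, against 33.1, 32.9, 18.7 and 34.2 RPKM in the day 7 scars (log2 change 2.28 ± 0.28 SE, limma adjusted p = 8.1e-06).

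**Figure D4:**
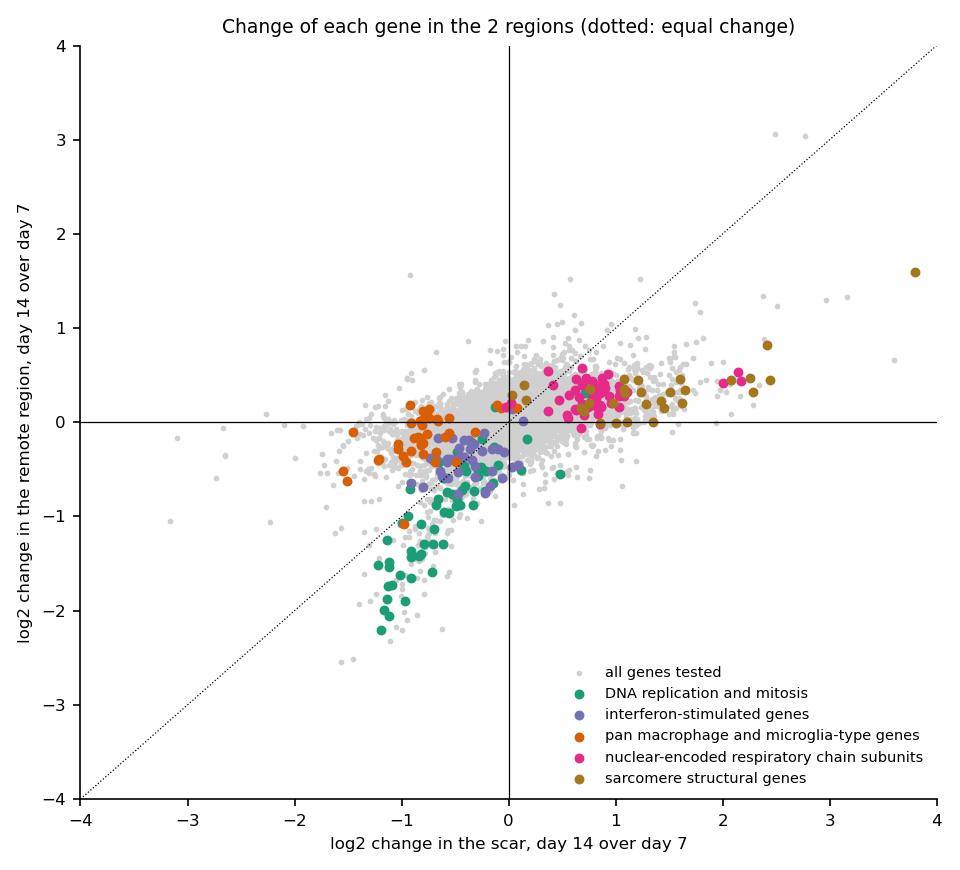
Log2 change of every gene tested, day 14 over day 7, in the scar (horizontal) and the remote region (vertical), with the members of 5 lists in colour and a dotted line where both changes are equal. The medians of the sarcomere genes, 1.22 in the scar and 0.31 in the remote region, lie below the line. Those of the pan-macrophage genes, -0.81 and -0.16, lie above it, while replication genes fell in both, at -0.60 and -0.87.

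The change of the scar differed from that of the remote wall in the same hearts for 1215 genes where it was higher and 1444 where it was lower. When libraries were scaled to the total of recovered reads, which moved the median difference of all genes to 0.10, against -0.01 as deposited, the split was 2334 higher and 826 lower. Without day 7 mouse A10 it was 716 higher and 890 lower. Serpinb1a fell in the scar and had a log2 change of -0.35 in the remote region (limma adjusted p = 0.14), a difference of -2.31. Arg1, Cemip and Gpnmb also had large negative differences, but their remote means were at most 0.231 RPKM on both days. With 1 RPKM added before the logarithm, their remote change could only be close to 0, so for these genes the difference restates the fall in the scar. Atf3, a stress-induced transcription factor, moved in opposite directions. It fell in the scar (log2 change -0.92 ± 0.16 SE, limma adjusted p = 0.00013), at 5.50 ± 1.44 RPKM on day 14 and 11.2 ± 1.38 RPKM on day 7 (SD, n = 4 each), and rose in the remote region (log2 change 1.56, limma adjusted p = 0.033), where it averaged 14.98 ± 10.3 RPKM on day 14 and 3.54 ± 1.06 RPKM on day 7. The difference was -2.49 (limma adjusted p = 0.00048). Mmp3, Cytl1, Ckmt2, Myl3 and Myh7 had the largest differences in favour of the scar, from 1.99 to 2.95. The scar genes Col1a1, Col3a1 and Postn did not pass this test, with differences of -0.68, 0.02 and -0.46, with limma adjusted p of 0.27, 0.97 and 0.62.

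Blood vessel endothelium was read from a list of 40 genes, of which 9 rose and 1 fell, with a median of 0.08. Over all genes tested, 21.9% rose and 21.2% fell. Of the endothelial genes, 5 rose without day 7 mouse A10, without day 14 mouse A5 or without day 14 mouse A11. Pecam1, the adhesion protein of all endothelium, measured 24.2, 27.4, 23.3 and 27.0 RPKM in the day 14 scars, against 22.6, 24.1, 23.8 and 26.1 RPKM in the day 7 scars, with overlapping days (limma adjusted p = 0.53). Vegfa, the growth factor for vessels, and Aplnr, a receptor of sprouting vessels, had log2 changes of 0.77 and -0.64. Lymphatic genes rose: 5 of 8 rose and 1 fell, with medians of 0.73 in the scar and -0.01 in the remote region. Mmrn1, a glycoprotein of lymphatic endothelium, measured 7.27, 15.9, 11.1 and 10.3 RPKM in the day 14 scars, against 2.87, 3.02, 1.43 and 2.01 RPKM in the day 7 scars, without overlap (log2 change 1.85 ± 0.35 SE, limma adjusted p = 0.00043). Prox1, the transcription factor that defines lymphatic identity and is also made by heart muscle, rose by 0.93, and Flt4, the receptor for lymphatic growth factors, rose by 0.59.

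Among 26 pericyte and smooth muscle genes, 8 fell and 4 rose. Rgs5, a pericyte signalling protein, measured 95.8, 90.6, 88.1 and 129 RPKM in the day 14 scars, against 143, 118, 102 and 130 RPKM in the day 7 scars (limma adjusted p = 0.11), and passed the test as a fall without day 7 mouse A10 (limma adjusted p = 0.0499) or without day 14 mouse A11 (0.0236). Myh11, the myosin of mature smooth muscle, measured 22.2, 29.9, 24.3 and 21.4 RPKM in the day 14 scars, against 11.1, 13.8, 14.6 and 17.1 RPKM in the day 7 scars, without overlap (log2 change 0.75 ± 0.14 SE, limma adjusted p = 0.00022). Of 10 Schwann cell and neuronal genes, 5 rose and 1 fell, among them Cdh19, an adhesion protein of Schwann cells and their precursors, which measured 4.53, 4.93, 4.51 and 4.40 RPKM in the day 14 scars, against 2.38, 2.07, 1.89 and 2.67 RPKM in the day 7 scars (log2 change 0.79 ± 0.16 SE, limma adjusted p = 0.00051). Scn7a, a sodium sensor of glia, rose by 0.75. Of 19 epicardial and mesothelial genes, 3 rose and 1 fell, against 21.9% and 21.2% of all genes tested. Aldh1a1, an enzyme that makes retinoic acid, rose (log2 change 1.53 ± 0.22 SE, limma adjusted p = 2.7e-05), at 57.2 ± 18.9 RPKM on day 14 and 18.4 ± 2.60 RPKM on day 7 (SD, n = 4 each), whereas the surface markers Msln and Upk3b spread widely within each day and did not pass the test.

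The week from day 7 to day 14 was placed within the whole course by the means of the 5 scar days. Of all 11390 genes tested, 2829 had their highest mean on day 42, 1720 on day 21, 812 on day 14, 2005 on day 7 and 4024 on day 3. Of the 2496 genes that rose, 1256 had their highest mean on day 42, 648 on day 21, 299 on day 14 and 293 on day 3. By the way they were chosen, rises could hardly be highest on day 7, or falls on day 14. Of the 2416 that fell, 1249 had their highest mean on day 3 and 1144 on day 7. Whether the means of days 3 and 7 differed was not tested. Spp1 and Arg1 had their highest mean on day 3, at 907 and 106 RPKM, and so did Tnc at 170 RPKM. Postn and Cthrc1 were highest on day 7, with means of 145 and 53.4 RPKM on day 3 and 1021 and 232 RPKM on day 7. C1qtnf3, a secreted relative of complement C1q, had its highest mean on day 7: it was 0.104 RPKM on day 3, 57.5 on day 7, 8.19 on day 14, 3.10 on day 21 and 1.56 on day 42. Its 8 values were 6.88, 8.56, 13.5 and 3.78 RPKM in the day 14 scars, against 91.7, 59.9, 53.0 and 25.4 RPKM in the day 7 scars, without overlap (log2 change -2.65 ± 0.36 SE, limma adjusted p = 2.3e-05). Cytl1 ran the other way, at 0.0794, 1.40, 27.98, 36.8 and 48.5 RPKM on the 5 days in order.

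**Figure D5:**
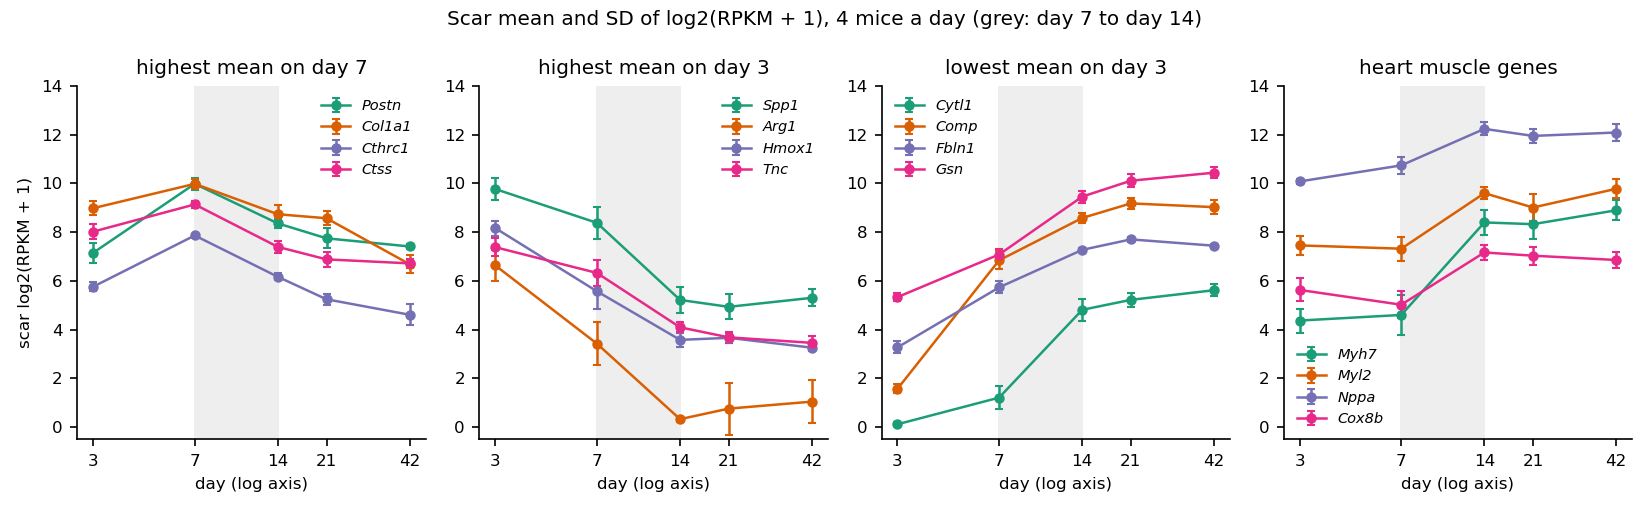
Scar mean and SD of log2(RPKM + 1) over 4 mice on days 3, 7, 14, 21 and 42 for 16 genes, with the week from day 7 to day 14 shaded and days on a log axis. Postn, Col1a1, Cthrc1 and Ctss peak on day 7, Spp1, Arg1, Hmox1 and Tnc are highest on day 3, Cytl1, Comp, Fbln1 and Gsn are lowest on day 3, and the muscle genes Myh7, Myl2, Nppa and Cox8b step up between days 7 and 14.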

How the data were processed

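Total RNA of scar and remote heart tissue was sequenced, and the authors deposited RPKM values for 11450 genes in 40 libraries. Per the submitters' processing notes, the authors used STAR, edgeR and build mm10, with no version or order stated. Annotation and read counting were not given in the sources used here. RPKM are not counts, so log2(RPKM + 1) was tested, for genes with at least 1 RPKM in 4 libraries, with limma 3.58.1 (R 4.3.3, statmod 1.5.0; mean-variance trend, robust, two-sided), and Benjamini-Hochberg adjusted p under 0.05 was called. The scar comparison was fitted on 20 scar libraries (15 residual degrees of freedom), the remote one on 20 remote libraries, and the difference of the changes on 40 libraries with the mouse as a block. The series' design text ties both regions to 1 heart, and the correlation of their deviations was 0.148 to 0.54 over 20 mice. Within a region, each library is labelled as its own mouse, and the p-values measure the spread between mice.

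The scripts were tested on simulated data. No 2 columns were identical, and Spearman correlations between the 8 scar libraries ran from 0.894 to 0.985. Whole reads could be recovered for 98.4% of genes (within 0.01 of a read, median 563 reads per gene and library), which served for depth and for 1 scaling alternative only. Gene symbols were matched to GENCODE (97.4% had 1 gene).

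Genes were named by a rule: the 15 largest rises and 15 largest falls among called genes without overlap and with at least 5 RPKM on the higher day, anchor genes and the 2 largest called rises and falls of each of 45 lists, the 5 largest differences of each sign, and the genes of 4 ratios. Not all of the 243 genes it names are described, and 1 is not reported here. Pdia6, and the genes of other observations where said, were chosen after their values were seen. The members, the lists and the tests were chosen with earlier results of these data known. Alternatives were other pseudocounts, filters, scalings, limma settings, libraries in the fit, no mouse block, and each library left out in turn. Python 3.11.15, pandas 2.3.3, numpy 2.4.6 and matplotlib 3.10.9 were used for tables and figures.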

Additional observations from a re-analysis of the deposited data

Results flagged for a closer look

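Among 4 mice of a day, 1 scar library stood apart from the other 3 in some of the genes named, by the share of the group's range that lay between it and its nearest neighbour (above Dixon's critical value for 4 samples). Chance alone flags about 1 in 20 groups, and 22 of 322 groups were flagged. The share is given after each gene. Day 14 mouse A4 was highest of its day in Cd248 (0.976), Cemip (0.927), Ckap4 (0.892) and Fbn1 (0.924). Day 14 mouse A11 was lowest of its day in Dbp (0.915). Day 14 mouse A4 was lowest of its day in Flt4 (0.890). Day 14 mouse A5 was lowest of its day in Aplnr (0.956). Day 14 mouse A6 was highest of its day in Jchain (0.843). Day 14 mouse A6 was lowest of its day in Col4a3 (0.864). Day 7 mouse A10 was highest of its day in Adam12 (0.854), Arg1 (0.851), Col1a1 (0.880), Folr2 (0.886), Hba-a1 (0.922), Hmox1 (0.917), Serpinb1a (0.942) and Spp1 (0.839). Day 7 mouse A10 was lowest of its day in Ckmt2 (0.915) and Reck (0.840). Day 7 mouse A12 was highest of its day in Clec3b (0.896) and Comp (0.859). Day 7 mouse A12 was lowest of its day in Postn (0.936).

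The change of the scar differed from that of the remote region by limma for 1215 genes where it was higher and 1444 where it was lower. On the log2 scale the largest differences, among genes with at least 5 RPKM in 1 of the 4 groups, were 2.95 for Cytl1, 2.20 for Myh7, 2.09 for Ckmt2, 1.997 for Myl3 and 1.99 for Mmp3 where the scar change was higher. They were -2.94 for Arg1, -2.60 for Cemip, -2.49 for Atf3, -2.36 for Gpnmb and -2.31 for Serpinb1a where it was lower. Arg1, Cemip and Gpnmb averaged at most 0.231 RPKM in the remote regions, so their remote change on the log2(RPKM + 1) scale could only be close to 0. All 10 kept their direction and an adjusted p under 0.05 under every alternative run for this comparison.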

How the results depend on the processing

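The count of genes that rose in the scar was 2193 to 2521 and that of genes that fell 2068 to 2433 when each library was left out in turn, and under the other settings they ran from 2097 to 2735 and from 1819 to 2578. For the difference of scar and remote changes, leaving out each mouse gave 716 to 1295 higher and 890 to 1571 lower genes, lowest without day 7 mouse A10, and scaling to recovered reads gave 2334 and 826. The cause was not tested. The pairing of the regions by mouse was tried both ways: 893 higher and 1130 lower genes with no replicate block, 1247 and 1528 with the block as random effect, and 1104 and 1180 with 16 libraries. Leaving out each library, the Col1a1 to Col3a1 ratio differed by -0.85 to -0.61 and the Col1a1 to Col1a2 ratio by -0.37 to -0.25, with an exact permutation p of 0.0571 whenever a day 7 library was left out and 0.0286 whenever a day 14 library was. The Myh7 to Myh6 ratio kept 2.24 to 2.50. Of 161 named genes followed through the settings, none of the 143 that were called changed direction under any of the 20 settings of the scar comparison. Among genes without a call, the sign turned under some settings for H2-Ab1 (-0.0127 to 0.13 with each library left out and -0.00633 after quantile normalization), Igkc (-0.14 to 1.78 with each library left out), Jchain (-0.39 to 1.05 with each library left out and -0.40 without both A12 of day 7 and A6 of day 14), Eln (-0.20 to 0.22 with each library left out and 0.12 without both A12 of day 7 and A6 of day 14), Tcf21 (-0.0102 without both mice of day 7 A10 and day 14 A4), Hba-a1 (-0.0382 without both A12 of day 7 and A6 of day 14) and Tgfb1 (0.00686 without both A12 of day 7 and A6 of day 14), as log2 changes. Gja5 lost its call (adjusted p = 0.053) without both day 7 A12 and day 14 A6, a setting chosen after seeing the data; it and the setting without both day 14 A4 and day 7 A10 gave 2211 and 2206 rises and 2134 and 2074 falls.

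The number of calls in short lists moved by over 1.5 times under some settings: neutrophil genes 6 instead of 3 lower with a pseudocount of 0.1 RPKM, S100 genes 2 instead of 5 lower without both day 14 A4 and day 7 A10, immediate early genes 3 instead of 6 higher without day 7 A12, day 14 A4 or day 14 A5, clock genes 6 instead of 10 higher without day 14 A6. Limits: 4 mice a day, RPKM without deposited counts, bulk tissue, and genes near 1 RPKM, where the log2(RPKM + 1) scale hides part of a change. Hearts without an infarct were not analysed here.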

Other observations

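Further gene lists were counted by the same limma calls. Of 23 integrin subunits, 11 fell and 5 rose in the scar, with a median of -0.18. Itgb2, the leukocyte subunit, fell (log2 change -1.17 ± 0.18 SE, limma adjusted p = 5.6e-05), at 11.4 ± 1.03 RPKM on day 14 and 27.8 ± 8.53 RPKM on day 7 (SD, n = 4 each), and Itgbl1, a secreted relative of integrins, rose (log2 change 0.77 ± 0.11 SE, limma adjusted p = 3.3e-05), at 124 ± 8.28 RPKM on day 14 and 72.5 ± 5.42 RPKM on day 7 (SD, n = 4 each). Of 10 S100 calcium-binding proteins, 5 fell and 2 rose: S100a4, made by leukocytes and fibroblasts, fell by 1.08 on the log2 scale, and S100a1, the heart muscle member, rose by 1.25. Of 7 adipocyte genes tested, 6 rose and 1 fell. Plin4, a lipid droplet coat protein that muscle also makes, measured 9.19, 11.1, 14.8 and 11.8 RPKM in the day 14 scars, against 4.67, 4.91, 4.08 and 4.62 RPKM in the day 7 scars (log2 change 1.18 ± 0.16 SE, limma adjusted p = 1.9e-05). Of 18 red cell and haem genes, 5 fell and 2 rose, and the haemoglobin chain Hba-a1 measured 3.15, 7.56, 11.5 and 8.97 RPKM in the day 14 scars, against 4.44, 3.62, 14.2 and 3.72 RPKM in the day 7 scars, without a call. Of 35 proteasome subunits, 3 rose and 1 fell, and 5 rose without day 7 mouse A12 or without day 14 mouse A4. Of 24 immediate early genes, 6 rose and 2 fell, against 21.9% and 21.2% of all genes tested.

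In genes of the circadian clock 1 mouse stood apart. Of 18 circadian genes 10 rose, with a median of 0.76. Dbp, an output gene of the clock, measured 42.3, 44.0, 46.0 and 2.93 RPKM in the day 14 scars, against 13.1, 14.2, 5.54 and 9.96 RPKM in the day 7 scars, so mouse A11 was below the day 7 scars while its 3 companions were above them. Dbp did not pass the test, but did without mouse A11 (log2 change 2.02, limma adjusted p = 3.34e-05). In the remote regions of the same mice, in the same order, Dbp was 43.7, 40.8, 46.0 and 4.55 RPKM on day 14, against 28.8, 32.4, 18.1 and 22.5 RPKM on day 7. Arntl, which activates such genes and peaks in antiphase, was 1.02, 0.730, 0.641 and 8.89 RPKM in the day 14 scars, against 3.05, 2.23, 5.05 and 4.31 RPKM in the day 7 scars, and 0.412, 0.425, 0.233 and 4.44 RPKM in the day 14 remote regions, against 1.43, 0.862, 2.48 and 1.63 RPKM in the day 7 remote regions. Mouse A11 was the high one in both regions. The hour of harvest is not given in the labels, and its part in any result was not tested.

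Genes known to respond to glucocorticoid hormone, a list drawn up after values had been seen, were also counted. In the scar 13 of 23 rose and 2 fell, with a median of 0.67, and in the remote region 9 rose, with a median of 0.54. Tsc22d3, an anti-inflammatory member, measured 43.7, 108, 48.7 and 34.2 RPKM in the day 14 scars, against 14.99, 22.1, 11.5 and 11.9 RPKM in the day 7 scars, with mouse A5 far above the others (log2 change 1.79 ± 0.30 SE, limma adjusted p = 0.00014). Its remote levels were 41.8, 83.8, 53.5 and 36.9 RPKM on day 14, against 17.9, 32.6, 20.2 and 20.3 RPKM on day 7. Zbtb16, a transcription factor on this list and among the largest rises, measured 4.20, 25.6, 14.6 and 12.2 RPKM in the day 14 scars, against 1.09, 1.88, 1.42 and 1.61 RPKM in the day 7 scars (log2 change 2.39 ± 0.38 SE, limma adjusted p = 9.7e-05).

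A processed pseudogene, Gm13394 on chromosome 2, was high in 2 mice only. It measured 0.157, 37.7, 0.228 and 42.5 RPKM in the day 14 scars, against 0.0622, 0.0425, 0 and 0 RPKM in the day 7 scars, and the remote regions of the same mice showed the same split, at 0.105, 80.8, 0.244 and 62.1 RPKM on day 14, against 0.0579, 0.101, 0.0544 and 0.264 RPKM on day 7. The other 24 libraries of the series held at most 0.446 RPKM. Its call (log2 change 2.77, limma adjusted p = 0.022) rests on these mice: leaving out mouse A5 or A11 ended it, as did fitting the 8 scar libraries of days 7 and 14 alone (adjusted p = 0.191). Igkc, the antibody light chain, ranged from 3.62 to 248 RPKM in the day 14 scars, highest in mouse A6, and from 3.43 to 50.7 RPKM in the day 7 scars. Igkc, Tsc22d3 and the remote values of this section were chosen after values were seen.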
